A study of Mus musculus with 5 samples.

Results

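The genes described here are 9 mouse genes of the pluripotency network and of the leukaemia inhibitory factor (LIF) pathway: *Nanog*, *Pou5f1*, *Klf4*, *Esrrb*, *Tbx3*, *Lif*, *Lifr*, *Il6st* and *Stat3*. They were chosen by name, for their roles in these pathways, from the 22380 protein-coding genes of the NCBIM37 (mm9) annotation, which held all 9. For each of them, the sites where the long non-coding RNA *Paupar* was found on chromatin were read from a list of 2849 CHART-Seq peaks. CHART-Seq pulls an RNA out of crosslinked chromatin with biotinylated antisense oligonucleotides and sequences the DNA that comes with it. The cells were untreated N2A cells, an established mouse neuroblastoma line, so the genes were read in a neural tumour line and not in embryonic stem cells. There were 2 *Paupar* pull-downs made with 4 oligonucleotides, 2 pull-downs made with a *LacZ* oligonucleotide as the control and 1 input DNA library. A peak was assigned to a gene when its midpoint lay in the regulatory domain of the gene, which covers the 5 kb before and the 1 kb after its start and reaches out on both sides to the next such interval of a protein-coding gene, by at most 1 Mb. By this rule 11 peaks belonged to 4 of the 9 genes, *Nanog*, *Tbx3*, *Lif* and *Stat3*. The list gives 1 score per peak for the experiment as a whole, so a peak has no replicate error, the depth behind it is unknown, and no test between libraries could be made.

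LIF is a secreted cytokine that keeps mouse embryonic stem cells undifferentiated. It binds a receptor made of the chains LIFR and IL6ST (gp130), which activates Janus kinases and then the transcription factor STAT3. STAT3 and its targets feed into a network of transcription factors, with OCT4 (encoded by *Pou5f1*), NANOG, ESRRB, KLF4 and TBX3 among its parts, that holds the pluripotent state. In the nervous system the same cytokines act on neural progenitors and on the formation of astrocytes.

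Sequences at the centres of 5 of the 11 peaks are shown first, as they carry the comparisons of motifs, repeats and capture oligonucleotides described further on. They are read from the plus strand of NCBIM37 and hold at most 300 bases around the peak midpoint, and none of them overlaps an annotated exon. The peaks of *Stat3* and *Nanog* are shown because they are all the peaks of these genes, with capitals for the letters of a motif (CATTGTT) in *Stat3*. The 2 sequences of *Nanog* hold none of the motifs and have no capitals.
*Stat3*, intron 1 (chr11:100792441-100792740): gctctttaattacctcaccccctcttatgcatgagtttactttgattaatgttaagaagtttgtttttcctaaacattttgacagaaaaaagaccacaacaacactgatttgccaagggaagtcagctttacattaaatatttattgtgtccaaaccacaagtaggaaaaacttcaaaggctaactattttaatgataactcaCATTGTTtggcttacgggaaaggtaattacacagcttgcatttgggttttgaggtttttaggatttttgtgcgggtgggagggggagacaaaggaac
*Nanog*, nearer peak (chr6:122691345-122691644): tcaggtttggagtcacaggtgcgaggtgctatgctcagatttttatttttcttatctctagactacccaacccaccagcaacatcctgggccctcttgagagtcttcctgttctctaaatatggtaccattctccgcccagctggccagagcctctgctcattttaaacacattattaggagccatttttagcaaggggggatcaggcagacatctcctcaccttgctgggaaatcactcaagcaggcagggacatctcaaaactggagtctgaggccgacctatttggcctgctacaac
*Nanog*, farther peak (chr6:122708764-122709053): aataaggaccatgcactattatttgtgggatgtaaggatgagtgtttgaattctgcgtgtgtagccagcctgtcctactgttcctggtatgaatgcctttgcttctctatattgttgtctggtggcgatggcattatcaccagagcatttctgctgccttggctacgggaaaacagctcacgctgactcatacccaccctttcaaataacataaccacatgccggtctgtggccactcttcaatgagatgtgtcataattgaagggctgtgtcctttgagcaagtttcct

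Of the 7 peaks of *Tbx3*, numbered 1 to 7 along the chromosome, 2 are shown. Peak 6 was the nearest to *Tbx3*, and its capitals mark a motif (ATGCAAAT). Peak 7 is shown for its tandem repeat, whose longest exact stretch in the printed bases is in capitals.
*Tbx3*, peak 6 (chr5:120169034-120169333): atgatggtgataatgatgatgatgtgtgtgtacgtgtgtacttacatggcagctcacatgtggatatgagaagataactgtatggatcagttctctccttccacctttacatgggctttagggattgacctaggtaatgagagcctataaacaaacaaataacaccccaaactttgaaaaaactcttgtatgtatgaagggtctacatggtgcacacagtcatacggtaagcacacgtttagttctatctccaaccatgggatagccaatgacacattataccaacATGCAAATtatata
*Tbx3*, peak 7 (chr5:120215822-120216121): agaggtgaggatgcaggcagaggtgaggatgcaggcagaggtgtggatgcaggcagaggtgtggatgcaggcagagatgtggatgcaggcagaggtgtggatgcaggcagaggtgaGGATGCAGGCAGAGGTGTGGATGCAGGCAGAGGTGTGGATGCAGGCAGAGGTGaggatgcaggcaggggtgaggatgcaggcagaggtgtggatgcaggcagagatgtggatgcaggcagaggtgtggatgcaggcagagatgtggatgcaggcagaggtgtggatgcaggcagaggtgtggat

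Peaks lay in the domains of 4 of the 9 genes (44.4%), compared with 3686 of the 22380 protein-coding genes (16.5%). The 4 were a ligand, a signal transducer and a pair of transcription factors, and neither receptor chain had a peak. The domains of these genes were long, and long domains hold more peaks: 7 of the 9 lay in the longer 2 of 5 equal classes of domain length. Among all genes the share with a peak rose from 3.98% in the class of the shortest domains to 8.02%, 12.8%, 22.3% and 35.3% in the longest. Averaged over the classes in which the 9 genes fall, the share of all genes was 26.9%. The 9 genes were proposed with results of these data known, so these shares are a description and no test was made on them. When each peak was given only to the nearest gene start, 3 of the 9 genes had a peak, against 9.95% of all genes. When domains were also bounded by non-coding genes and pseudogenes, only *Nanog* and *Stat3* kept one, against 11.7% of all genes.

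**Figure D1:**
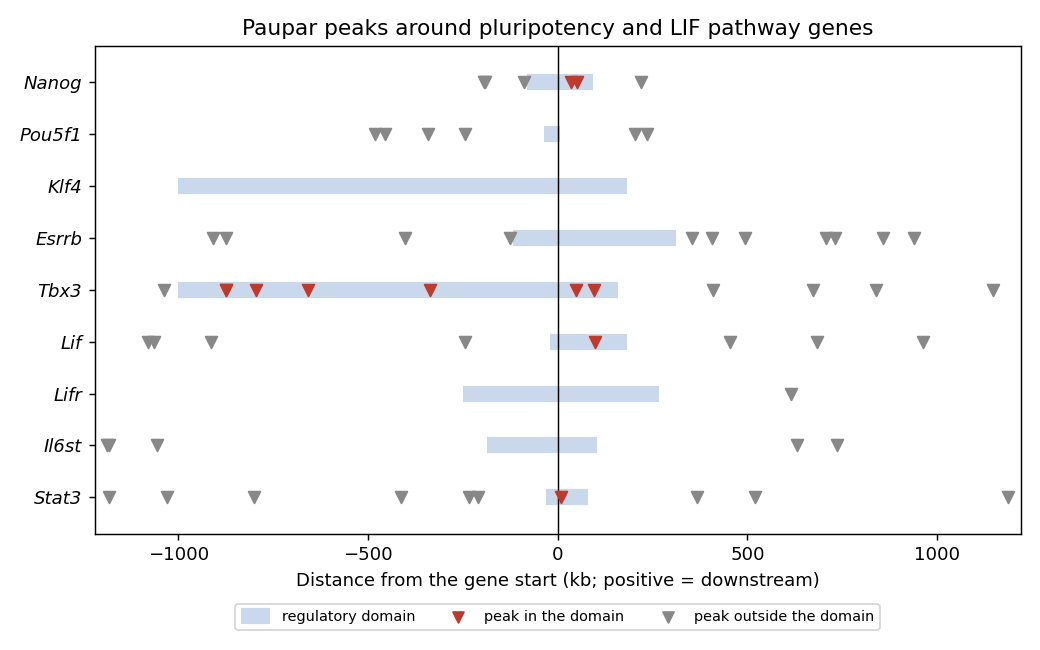
Peaks within 1200 kb of the start of each of the 9 genes, by distance in kb and with the direction of transcription to the right. Pale bars are regulatory domains, red triangles the peaks in the domain of the gene and grey triangles other peaks. Red triangles stand only in the rows of *Nanog*, *Tbx3*, *Lif* and *Stat3*, and none lies within 5 kb of a gene start.

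None of the 9 genes had a peak within 5 kb of its start, and 2.36% of all protein-coding genes had one. The nearest peaks of the 4 genes lay at a median of 41247 bp from the gene start, and those of all genes with a peak in the domain at a median of 43698 bp. All 11 peaks also lay in the domain of a second gene, as did 84.8% of the peaks in the list, so that by this rule none of them belongs to a single gene.

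*Stat3* (ENSMUSG00000004040), which encodes the transcription factor at the end of the LIF signal, had the closest peak of the 9. It lies on chromosome 11 from 100792038 to 100793144, in intron 1 of *Stat3* itself, 8263 bp downstream of the gene start at 100800854. Only 3.34% of protein-coding genes had a peak nearer to their start. The peak is 1107 bp wide, against a median of 556 bp in the list, and its score of 18.78 ranks 715 of 2849 against a median of 12.7. This was the single peak of the 11 that lay inside the gene to which it was assigned. The domain of *Stat5a*, a neighbouring gene of the same family, holds it as well, at 71926 bp from its start, whereas the domain of *Stat5b* holds no peak. The next peak of the chromosome was 209491 bp from *Stat3*, beyond its domain of 109535 bp.

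*Lif* (ENSMUSG00000034394), the gene of the cytokine, had 1 peak, on chromosome 11 from 4255542 to 4256279. It lies 98351 bp downstream of the start of *Lif* and 85197 bp from that of *Hormad2*, a meiotic gene, in whose intron 11 it is found. *Hormad2* is therefore the gene with the nearer start. The peak is 738 bp wide with a score of 13.47 (rank 1297), near the middle of the list. *Osm*, which encodes the related cytokine oncostatin M and starts 21137 bp from *Lif*, had no peak in its domain. From the closest annotated transcript start of *Lif* the peak was 88813 bp away.

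The receptor chains had no peak. For *Lifr* (ENSMUSG00000054263), the chain that gives the receptor its specificity for LIF, the nearest peak lay 613740 bp downstream, in the domains of *Egflam* and *Gdnf*, with a score of 28.4. That was also the single peak within 1 Mb of *Lifr*, although its domain of 518081 bp is longer than those of 90.1% of genes. *Il6st* (ENSMUSG00000021756), the chain shared by the whole cytokine family, had its nearest peak 631456 bp downstream with a score of 9.3. A second one lay 735452 bp away and there were no others within 1 Mb. The median over all genes was 3 peaks within 1 Mb.

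*Nanog* (ENSMUSG00000012396), a homeodomain factor of the core network, had 2 peaks on chromosome 6, both inside its neighbour *Slc2a3*, which encodes a glucose transporter. The nearer one, from 122691273 to 122691716, is 33988 bp downstream of *Nanog* and 60163 bp from the start of *Slc2a3*. It is 444 bp wide with a score of 8.95 (rank 2276). The farther one, from 122708764 to 122709053, is 51402 bp from *Nanog* and 42749 bp from *Slc2a3*. It is narrower, at 290 bp, and has a score of 13.88 (rank 1233). Both peaks lay within introns of *Slc2a3* without touching an exon. By the nearest gene start, taken as the outermost one of each gene, 1 peak thus went to each gene. The nearer peak was spanned by 7 transcripts of *Slc2a3* and the farther one, 17048 bp away, by 2. Other *Slc2a3* transcripts therefore start between these peaks, closer to the nearer peak than *Nanog* does. With scores of at least 10 only the farther peak remained. On the other side, 90051 bp upstream of *Nanog*, a peak from 122567110 to 122567801 fell in the domains of *Dppa3*, another pluripotency gene, and of *Gdf3*. Its score was 13.53. This stretch of chromosome 6 therefore had 3 peaks, spread to both sides of *Nanog* and none at its start.

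*Tbx3* (ENSMUSG00000018604), a T-box factor that links LIF signalling to the core network, had 7 peaks on chromosome 5, more than the other 8 genes together. Only 11 of the 3686 genes with a peak (0.298%) had 7 or more, while 73.1% had 1. Its domain spans 1158994 bp and is longer than those of 97.7% of genes. Counted per length, *Tbx3* had 6.04 peaks per Mb of domain, below *Nanog* at 11.5 and *Stat3* at 9.13 and above *Lif* at 4.93. The values of *Nanog*, *Stat3* and *Lif* rest on 2, 1 and 1 peaks in domains of 173229, 109535 and 202684 bp. In domains of such length a single peak already gives a high value, so this order says little. Over the domains of all 9 genes together, with and without a peak, the value was 2.68, and over those of all protein-coding genes it was 1.17. The 2.68 rests largely on *Tbx3*, which held 7 of the 11 peaks, including a pair only 169 bp apart. As 5 of the 9 genes had no peak, it is not a trait shared by the group.

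The 7 peaks of *Tbx3* were intergenic and fell into groups. Peaks 1 and 2 lie 875363 and 873286 bp upstream of *Tbx3*, only 169 bp apart, from 119243973 to 119246656 and from 119246825 to 119247959. Peak 1 is 2684 bp wide with a score of 41.16 (rank 117), the widest and highest scoring of the 11, and peak 2 is 1135 bp wide with a score of 12.26. Peak 3 (119324753 to 119325172, 420 bp, score 9.7) and peak 4 (119463367 to 119464167, 801 bp, score 16.35) lie 795715 and 656911 bp upstream. These 4 peaks were all closer to the start of *Med13l*, a Mediator subunit gene, than to that of *Tbx3*, with *Med13l* 234587 to 453039 bp away. Peak 5 (119783247 to 119785229) is 1983 bp wide with a score of 9.59, 336440 bp upstream of *Tbx3*, which has the nearest start. Downstream, peak 6 (120168802 to 120169566, 765 bp, score 19.77) lies 48506 bp from *Tbx3*. Peak 7 (120215668 to 120216275, 608 bp, score 12.18) lies 95294 bp from *Tbx3* but 68700 bp from *Tbx5*, the neighbouring T-box gene. By nearest start, *Tbx3* thus kept peaks 5 and 6. With domains of at most 100 kb it kept peaks 6 and 7, and when non-coding genes also bounded the domains it kept none.

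**Figure D2:**
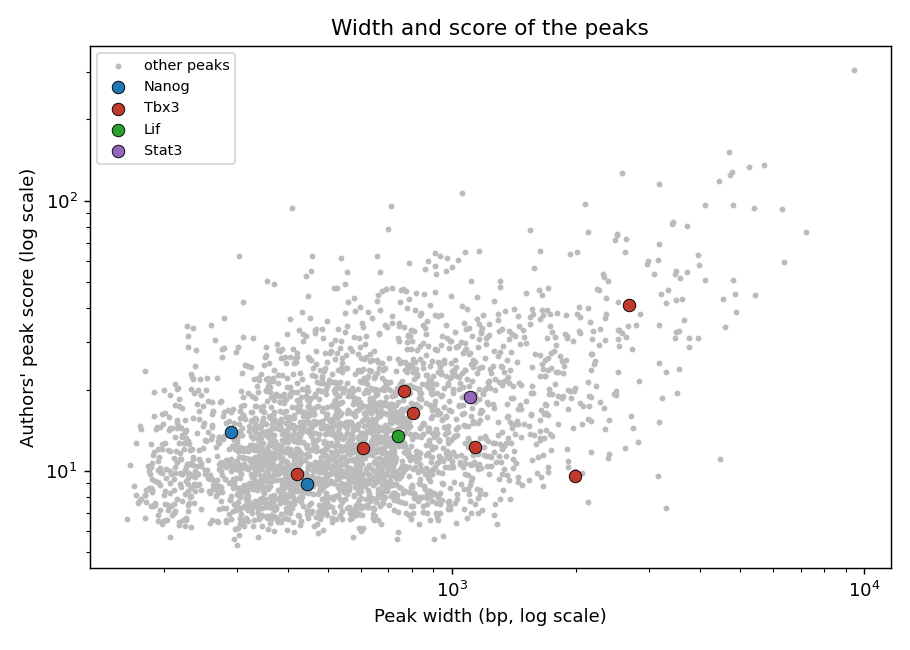
Width (bp, log scale) against the authors' score (log scale) for the 2849 peaks, with the 11 peaks of the 4 genes in colour. The coloured points lie within the cloud of the other peaks, and the *Tbx3* peak with a score of 41.16 stands highest among them.

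As a group the 11 peaks had a median score of 13.5 and a median width of 765 bp. Of the 11, 6 scored above the median of the list and 8 were wider than its median. Widths over 1 kb were found in 4 of them, that is in 3 peaks of *Tbx3* and in that of *Stat3*, and in 17.8% of all peaks. The median GC content of 500 bp windows around the midpoints was 48.4% for the 11 peaks and 47.6% for all peaks.

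The other 3 transcription factors had no peak in their domains. *Esrrb* (ENSMUSG00000021255), an orphan nuclear receptor, had 11 peaks within 1 Mb of its start, the most of the 9 genes, yet its own domain of 430830 bp held none. Its nearest peak scored 14.21 and spans 87575524 to 87575973 of chromosome 12. It lies 126318 bp upstream and 8071 bp beyond the domain edge set by the gene model *1700020O03Rik*. When protein-coding genes with such placeholder names were left out, an alternative chosen after seeing the data, this peak fell in the domain of *Esrrb*, and 5 of the 9 genes had a peak against 18.8% of the remaining genes. *Pou5f1* (ENSMUSG00000024406), which encodes OCT4, sits among genes of the major histocompatibility complex and has a short domain of 41010 bp. Its nearest peak lay 204696 bp downstream, in the domains of *Ddr1* and *Ier3*. There were 6 peaks within 1 Mb of it. *Klf4* (ENSMUSG00000003032), a zinc finger factor downstream of STAT3, was the opposite case. Its domain of 1181432 bp is longer than those of 97.8% of genes, there was no peak within 1 Mb, and the nearest one was 1598734 bp away.

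**Figure D3:**
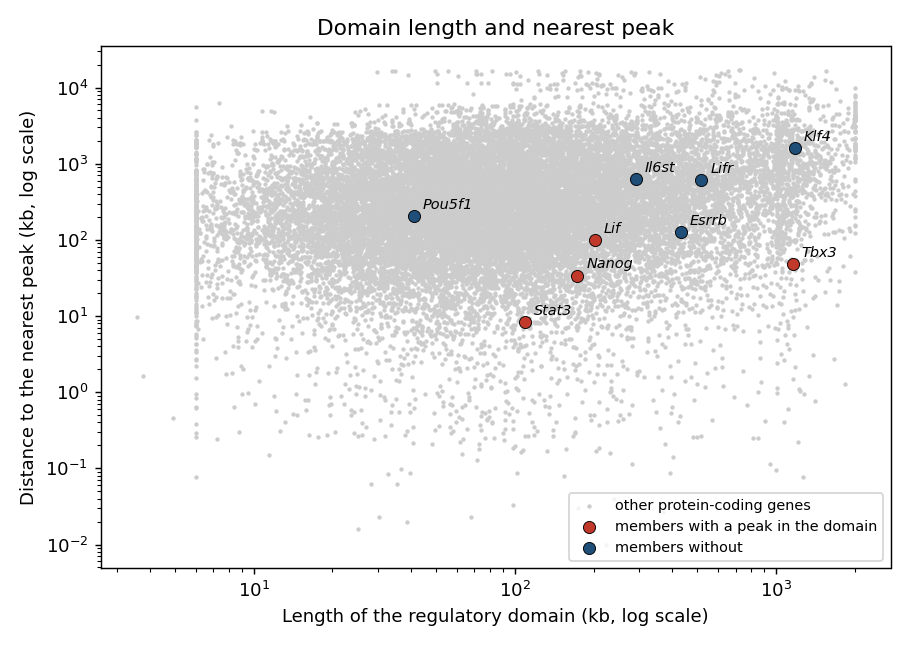
Length of the regulatory domain (kb, log scale) against how far the nearest peak lies from the gene start (kb, log scale) for protein-coding genes, with the 9 genes marked. *Klf4* and *Tbx3* have domains of about the same length, and their nearest peaks lie at 1598734 bp and 48506 bp.

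A further 74 genes around the same pathway were read by role, all of them found in the annotation, and 20 (27.0%) had a peak in their domain. Averaged over their classes of domain length, the share of all genes was 20.1%. With the nearest gene start only, 12 of the 74 had a peak, against 9.95% of all genes, and with domains of at most 100 kb 11 had one, against 11.9% of all genes. These lists too were drawn up with earlier results known and were not tested.

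Other genes of the pluripotency network, most of them transcription factors, had a peak in 8 of 20 cases, against 24.1% of genes in the same length classes. The closest lay 8972 bp upstream of *Dppa3* (score 13.53) and 9308 bp downstream of *Klf2* (score 8.73), a factor related to *Klf4*. *Prdm14*, *Zfp42* and *Nr5a2* followed at 45221, 156645 and 363675 bp. These 5 genes had 1 peak each, with scores between 8.45 and 14.49. For the other 3 genes the peaks lay farther away. *Sox2*, the partner of OCT4, had 2 peaks, the nearer 413818 bp upstream with a score of 37.42 (rank 153), and *Klf5* and *Myc* had 1 each, with scores of 11.02 and 19.06.

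Of the other cytokines that use IL6ST, 0 of 8 had a peak. They sit in short domains, with a median of 24068 bp against 89461 bp for all genes, and 9.0% of genes in the same length classes had one. Their receptor chains had a peak in 2 of 4 cases, against 21.0% in the same length classes. That of *Il6ra*, the interleukin 6 receptor, lay 46301 bp downstream with a score of 7.89, and that of *Cntfr*, the receptor chain for ciliary neurotrophic factor, 108285 bp downstream with a score of 12.35. *Osmr*, the receptor chain for oncostatin M that neighbours *Lifr*, had none.

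Within the cell, 2 of 15 kinases, adaptors and STAT genes had a peak (13.3%), against 17.2% in the same length classes. These were *Stat5a*, through the peak in *Stat3*, and *Sos1*, an exchange factor for Ras, with a peak 31362 bp downstream (score 12.82). The Janus kinase genes *Jak1*, *Jak2* and *Tyk2* had none. Among inhibitors of the signal 2 of 8 had one (25.0%), against 16.9% in their length classes. *Socs3*, the feedback inhibitor that binds IL6ST, had 2 peaks, the nearer 12718 bp downstream with a score of 19.6, and *Ptpn2*, a phosphatase, had 1 at 23917 bp (score 8.64).

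Genes that STAT3 is known to switch on had a peak in 3 of 8 cases, against 16.3% in the same length classes. The nearest peaks lay 13741 bp from *Fos*, 62457 bp from *Pim1* and 139420 bp from *Ccnd1*, with scores of 12.05, 12.63 and 12.16. Wnt and BMP genes that act beside LIF in stem cells had one in 3 of 11 cases, near the 29.6% of their length classes. Of these *Gsk3b*, a kinase whose inhibition favours self-renewal, had a peak 3893 bp downstream of its start with a score of 26.36 (rank 344), the closest of all 83 genes examined. *Ctnnb1*, which encodes beta-catenin, had 3 peaks and *Axin2* had 2, the nearest at 150726 and 392334 bp.

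**Figure D4:**
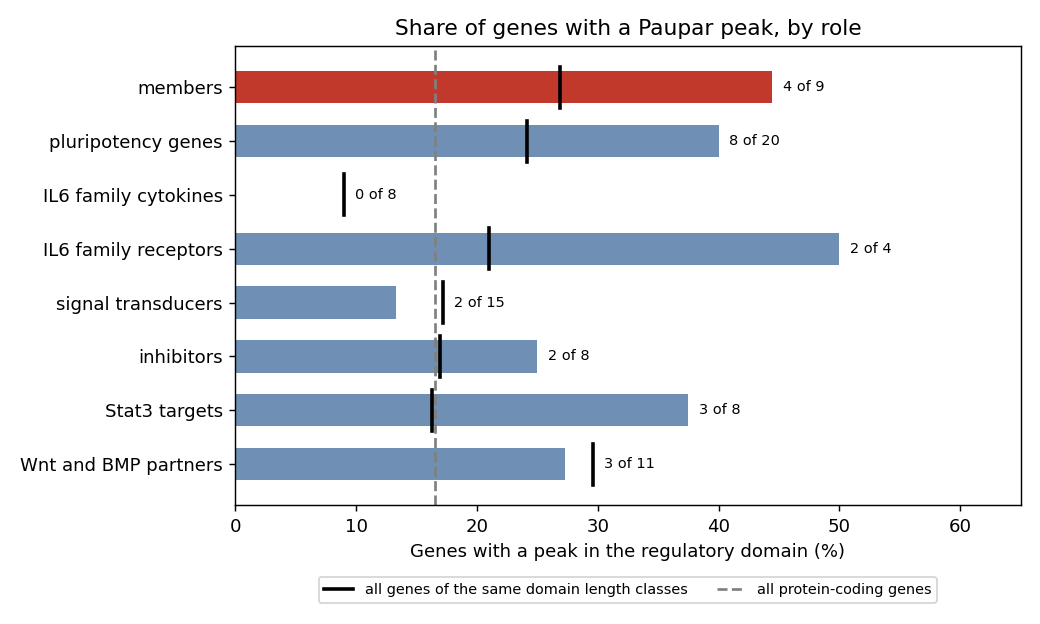
Share of genes (%) with a peak in the regulatory domain for the 9 genes (red) and for 7 lists of related genes (blue), with counts beside the bars. Black marks give the share of all genes in the same classes of domain length, and the dashed line the 16.5% of all protein-coding genes. The bars for the 9 genes and for pluripotency genes, receptors, inhibitors and Stat3 targets reach past their black marks, while those for cytokines, signal transducers and Wnt and BMP partners end before them.

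The sequence of the 11 peaks was searched for letters that the factors of this network bind. Windows of 500 bp around the midpoint were read on both strands for TTCNNNGAA (STAT), ATGCAAAT (OCT), CATTGTT (SOX), CCACACCC (KLF), TCAAGGTCA (ESRRB) and AGGTGTGA (TBX), of which KLF and TBX share the letters CACACC when read on opposite strands. The STAT letters were found in 2 of 11 windows, a peak of *Tbx3* (peak 2) and the farther peak of *Nanog*, and in 12.8% of all peaks. The OCT letters were found in 2, *Tbx3* peak 6 and again the farther *Nanog* peak, and in 2.32% of all peaks. In the *Nanog* window both matches lay just outside the borders of the 290 bp peak, 163 and 175 bp from its midpoint. The SOX letters were found in the *Stat3* window, 56 bp from its midpoint, and in 7.72% of all peaks. The KLF letters were found in the *Lif* window, 79 bp from its midpoint, and in 6.39% of all peaks. The ESRRB and TBX letters were in none of the 11, and in 1.44% and 2.04% of all peaks. Windows lying 1 kb outside the peaks held these 6 motifs in 14.9%, 3.09%, 8.59%, 4.53%, 1.32% and 2.35% of cases, in the same order. A match is a description of the letters and no evidence of binding.

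The central 500 bp windows of several *Tbx3* peaks held periodic sequence, to differing degrees. For each window the share of bases equal to the base 1 period further on was taken, at the best period from 2 to 40 nt, a measure chosen after the sequences were seen. It was 84.9% at a period of 18 nt in peak 7, 66.4% at 21 nt in peak 5 and 57.8% at 12 nt in peak 4. The other 8 windows lay between 29.5% and 38.9%. At least 50% was thus reached by 3 of 11 windows, all of *Tbx3*, compared with 6.84% of all peaks and 2.39% of windows 1 kb outside them. In peak 7 the unit ggatgcaggcagaggtgt runs through the printed sequence with small changes, and 53 bases repeat it exactly. The authors kept reads with 1 best position, and how many reads such repeats lose or gain at this step was not tested.

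**Figure D5:**
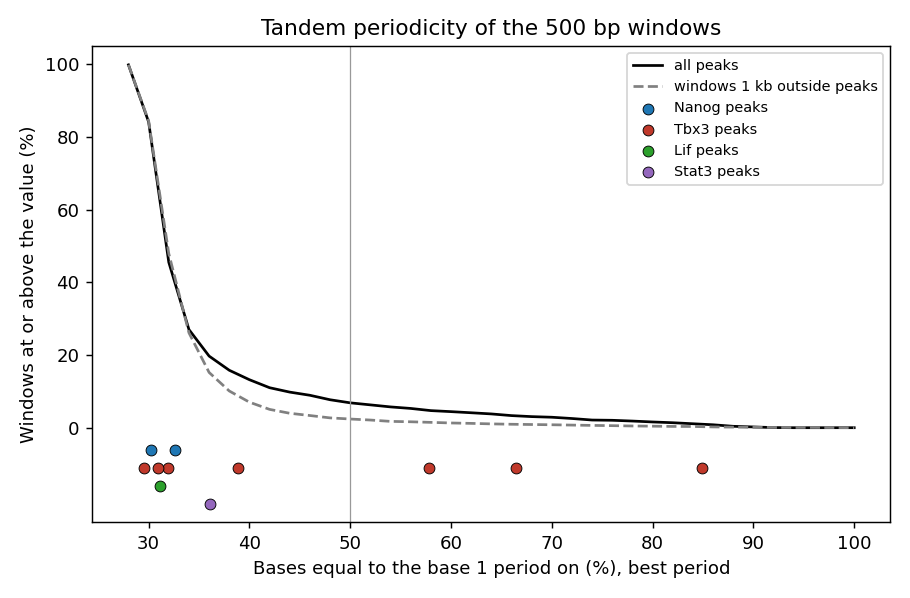
Share of 500 bp windows (%) in which at least the given percentage of bases equals the base 1 period on, for all peaks (solid line) and for windows 1 kb outside peaks (dashed line). Dots below the lines are the 11 peaks, 1 row per gene, and the vertical line marks 50%. Of the dots, 3 of *Tbx3* lie to the right of that line, at 57.8%, 66.4% and 84.9%.

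The capture oligonucleotides themselves can pair with genomic DNA. The study released the captured DNA with RNase H. By local alignment of *Paupar* with its peaks, its authors reported no evidence of complementarity. Whether pairing of the oligonucleotides with DNA gave rise to peaks was not tested here, and the windows were only compared with their letters. The 4 *Paupar* oligonucleotides are shown for this comparison, with no capitals since no stretch of 10 nt matched.
PauparCHART254: ggcttaagtccacccctggattcg
PauparCHART428: gcctggaactagatcaaggcagag
PauparCHART2041: ctctcagaaactgcgatacaaaag
PauparCHART2067: gaggcctagtcaaaatatctccac

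None of the 4 *Paupar* oligonucleotides shared 10 nt or more in a row with any of the 11 windows (0 of 11), whereas 19.6% of all peaks and 6.85% of windows 1 kb outside peaks held such a match. The longest matches in the 11 windows were 6 to 9 nt, and the median over all peaks was 9 nt. When the whole peak was read in place of the window, the 11 peaks again had no match of 10 nt. For the *LacZ* oligonucleotide 0 of the 11 windows, 0.14% of all peaks and 0.492% of windows 1 kb outside peaks had a match of that length. The shares of *LacZ* and *Paupar* are not like for like. That of *Paupar* counts a match to any of 4 oligonucleotides and that of *LacZ* to 1, and the peaks were called against the *LacZ* pull-downs.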

How the data were processed

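CHART-Seq of *Paupar* in N2A cells comprised 2 *Paupar* pull-downs, 2 *LacZ* pull-downs and 1 input library. Per the methods of the study, paired-end reads were mapped to mm9 with bowtie, keeping reads with 1 best position, and MACS2 called peaks for each pull-down against its *LacZ* control and against input, keeping calls with −log10 q over 5. How the calls of both pull-downs were joined is not stated. The authors deposited the 2849 peaks common to both comparisons, each with a position and a score; that the score is −log10 q is not stated, so it served to rank peaks and to filter them. Depth and values per library are unknown from the list.

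Gene starts were the outermost starts of GENCODE vM1 genes on NCBIM37, the assembly that mm9 denotes, and every peak lay within its chromosome lengths. *Tfcp2l1* and *Tfe3* were found under older symbols. The members and lists were chosen with earlier results of these data known. The genes named are the 9 members, up to 5 genes per list with the nearest peaks, the other 3 pluripotency genes with a peak (added after their values were seen), and neighbours sharing a peak. The sequences of some peaks are not reported here. Members were counted beside all genes and no test was run. Assignment, motif, period and match steps were tested on simulated data. The tools were samtools 1.23.1 and Python 3.11.15 with numpy 2.4.6, matplotlib 3.10.9 and pysam 0.24.0.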

Additional observations from a re-analysis of the deposited data

How the results depend on the processing

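The 4 genes with a peak were the same 4 under several alternatives, given here with the share of all protein-coding genes. These were domains of at most 100 kb (11.9%), scores of at least 10 (12.7%), any overlap of at least 1 bp (16.6%) and peaks within 10 kb merged (16.4%). The count was also 4 with the starts of all transcripts, for which the share of all genes was not computed. It was 3 with the nearest gene start only (9.95%), 5 without genes of placeholder names (18.8%), and 2 with domains bounded by every gene of the annotation (11.7%). The 20 related genes with a peak became 11 with at most 100 kb, 12 with the nearest gene start only and 12 with every gene of the annotation. The 3686 protein-coding genes with a peak became 2226 with the nearest gene start only. Of all peaks, 559 had a match of at least 10 nt to a capture oligonucleotide and 164 one of at least 11 nt, while 195 were periodic at 50% and 126 at 60%, an alternative chosen after seeing the data. No paired analysis was possible because the list holds no value per library, and for the same reason no replicate could be left out.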
